A study of Mus musculus with 6 samples.

Results

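The Mir466, Mir467, Mir669 and Mir297 genes are rodent microRNA genes, and their probe sets were followed in inguinal fat of mice in which Tfg was targeted in adipocytes. The rule took each probe set whose single gene symbol in the array annotation begins with one of these 4 names, and it gave 87 of the 65956 probe sets on the array. Of these, 31 carried a Mir466 symbol, 18 a Mir467 symbol, 34 a Mir669 symbol and 4 a Mir297 symbol. The family was selected on its difference between KO and WT arrays, which was already known. That difference is therefore a description. limma's calls of members come from its fit over all probe sets and are counted only beside the share of all probe sets called, and they support nothing about the family.

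Whole-transcript microarrays measured total RNA of subcutaneous inguinal white adipose tissue (WAT) from male C57BL/6 mice aged 2 months, with 3 arrays in each group. KO mice carried floxed Tfg alleles (TFG f/f) with Adipoq-ERT2Cre, a Cre recombinase that tamoxifen switches on and that the adiponectin promoter restricts to fat cells, so other cells of the tissue keep the gene. WT mice were TFG f/f, with no Cre named. Tamoxifen was injected for 5 days in both groups, and the fat was taken 2 weeks later. Values are log2 signals as deposited, so a difference of 1 is a doubling, and means are given ± SD over n = 3 arrays.

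In the nucleus Drosha cuts a hairpin precursor from a longer transcript, and Xpo5 exports the hairpin. Dicer1 then cuts the microRNA from it, and the microRNA is loaded onto an Argonaute protein such as Ago2. Bases 2 to 8 of the mature strand, the seed, pair with target messages. In the mouse most of these genes lie in a large cluster inside an intron of Sfmbt2, an imprinted Polycomb-related gene known from the placenta. In RefSeq (GRCm38.p6), 67 of the 76 member symbols lie inside Sfmbt2 and 9 lie elsewhere. The members share near-identical repeats, so probe sets may read each other's transcripts, and copies are not replicates of each other. The labels and the table do not say which bases a probe set reads, nor whether it reads hairpins, mature strands or longer transcripts.

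The table of RefSeq sequences used here matched 8 of the 76 symbols, each of them outside the chromosome 2 cluster. The 7 mature strands are shown because they carry runs of alternating bases. The rule read names only, but members share near-identical repeats, so this feature is not independent of the choice by name. They are written 5′ to 3′ with the seed in capitals, and positions are those of RefSeq on GRCm38.p6.
miR-466k, chr3:85467396-85467418, plus strand: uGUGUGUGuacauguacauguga
miR-466j, chr10:60960802-60960824, plus strand: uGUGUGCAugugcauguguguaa
miR-466i-3p, chr13:17747552-17747573, plus strand: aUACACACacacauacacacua
miR-467f, chr11:69635419-69635439, minus strand: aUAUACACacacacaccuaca
miR-467g, chr5:34732872-34732892, minus strand: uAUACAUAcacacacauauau
miR-467h, chr9:115381898-115381919, plus strand: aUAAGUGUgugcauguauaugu
miR-669n, chr3:115979905-115979924, plus strand: aUUUGUGUguggaugugugu
All 7 seeds differ from each other. That of miR-467h is shared by 1 mature strand outside the family in that table, miR-668-5p. Each of the 7 strands holds UGUGUG or ACACAC, read 5′ to 3′ on the printed strand, against 39 of the 1738 mature mouse strands in the table (2.24%). Their GC content lay between 23.8% and 43.5%.

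Of the 4 member hairpins in the table, 3 hold UGUGUGUG or ACACACAC, against 11 of its 1005 hairpins in all (1.09%). With 4 hairpins and 7 mature strands these shares cover a small part of the family. The longest alternating run, 23 bases, stands in the hairpin of Mir466k, shown with the mature strand in capitals, and Mir297-1 is shown as the hairpin without the motif.
Mir466k hairpin, chr3:85467377-85467498, plus strand: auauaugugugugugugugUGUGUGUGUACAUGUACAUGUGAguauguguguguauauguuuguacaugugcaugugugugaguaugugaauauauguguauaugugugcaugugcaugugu
Mir297-1 hairpin, chr7:10958437-10958512, minus strand: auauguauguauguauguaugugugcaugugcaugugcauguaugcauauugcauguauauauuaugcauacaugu

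Most members were dimmer on the KO arrays than on the WT arrays, and the KO arrays differed among themselves far more than the WT arrays did. The difference, KO minus WT, was below 0 for 77 of 87 members (88.5%), 0 for 1 and above 0 for 9. It was below 0 for 78.5% of all probe sets and 90.3% of other microRNA probe sets, so a difference below 0 was common outside the family too. The 9 members above 0 are copies that share the same 6 values. With members of identical values counted once, 63 of 65 (96.9%) were below 0. The median difference of the members was -1.22. Over all 65956 probe sets the median difference was -0.37, so the members stood 0.85 below that shift. It was -0.45 over the 554 other microRNA probe sets. All 3 KO values lay below all 3 WT values for 63 members (72.4%), against 44.9% of all probe sets.

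The 3 KO arrays departed from the WT mean by different amounts. The median member stood 0.44 below the WT mean on KO 1 (-0.44), 2.06 below it on KO 2 (-2.06) and 0.99 below it on KO 3 (-0.99). KO 2 gave the lowest of the 6 values for 70 of 87 members (80.5%), and for 58.7% of all probe sets. The same median departure over all probe sets was -0.25, -0.55 and -0.27 on KO 1, KO 2 and KO 3, and over other microRNAs -0.29, -0.64 and -0.36. KO 2 was therefore the lowest of the 3 in each of these classes. The median SD of a member was 0.69 among KO arrays and 0.24 among WT arrays, while over all probe sets it was 0.26 and 0.18. Without KO 2 the median difference of the members was -0.74. Of 19 named members with a measured difference, 14 moved by over 1.5 times when KO 2 was left out: Mir297a-3 then stood at -0.65, Mir467e with its chromosome 1 identifier at -1.07 and Mir466f-4 at -0.98. Mir669h (-1.73), Mir466o (-1.65) and Mir669b (-1.94) moved less.

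**Figure D1:**
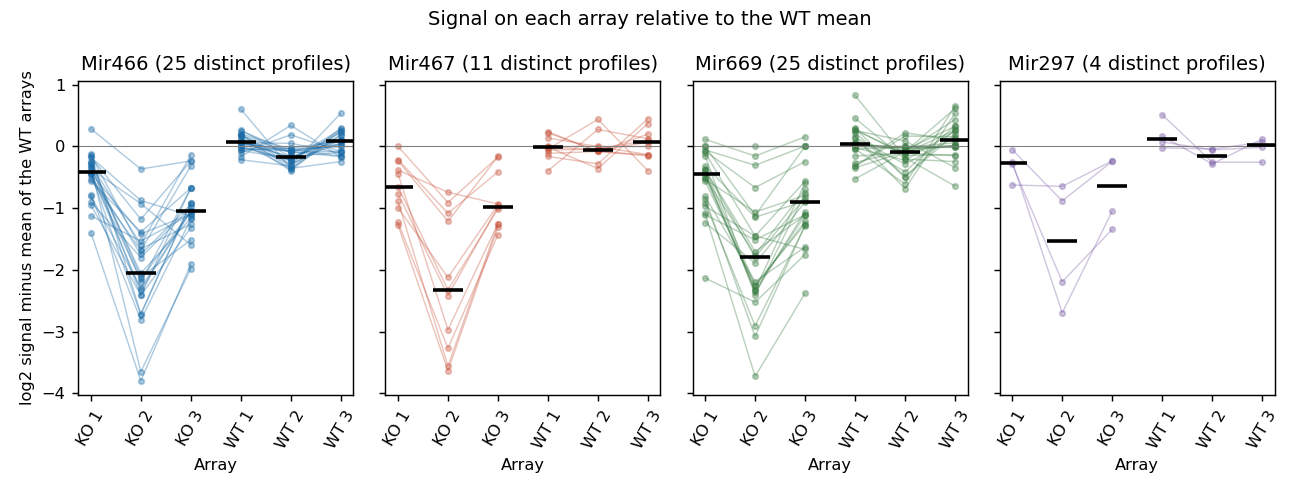
Log2 signal on each array minus the mean of the 3 WT arrays, for each distinct set of values in the 4 subfamilies. Thin lines join the values of 1 probe set within a group, and black bars are medians. On KO 2 the medians of the subfamilies lie between -2.32 and -1.54, and on KO 1 between -0.65 and -0.27.

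limma, fitted over all probe sets with Benjamini-Hochberg adjustment (adjusted p under 0.05), called 15 of the 87 members lower on the KO arrays and 0 higher. At an unadjusted p under 0.05, too, 0 were higher. The 15 are 17.2% of the members, against 15.6% of all probe sets called lower and 5.32% called higher, and since the contrast chose the family nothing is read from it. A further 48 members had all KO values below all WT values without passing. With the 15, which had no overlap either, that made 63 members (72.4%), against 44.9% of all probe sets. Calls of members depended on single arrays. There were 47 without KO 1, against 16.2% of all probe sets, 25 without KO 2, against 10.5%, and 0 without KO 3, WT 1, WT 2 or WT 3. With limma's array weights there were 52, against 26.4%. Without KO 3, WT 1, WT 2 or WT 3 limma also called 0 of all 65956 probe sets. At an unadjusted p under 0.05 it then gave 21579 to 28697 of them in either direction. Of the 87 members, 27 to 39 were then lower and 0 higher. Among all calls on the deposited values 25.4% were higher, but the share was 64.6% with quantile normalization and 61.2% with every array centred on its own median. The median of all probe sets moved to -0.04 under both scalings. The members' median was -0.78 after quantile normalization and -0.89 after centring, 0.74 and 0.85 below that of all probe sets.

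The median difference of the family lay closer to that of bright probe sets, with all of them counted or only those without a gene symbol, than to that of other microRNAs. Among the 44 members with a mean signal of 10 or more the median difference was -1.33, and among the 43 dimmer members it was -0.73. Probe sets without a gene symbol and with a mean of 10 or more, 2546 in number, had a median of -1.07, and those under 10 had -0.44. The 58 other microRNA probe sets at 10 or more had a median of -0.49. All 4536 probe sets at 10 or more had a median of -0.93. All KO values lay below all WT values for 57.5% of these, against 84.1% of the bright members. limma called 28.6% of these lower, against 15.9% of the bright members. The boundary of 10 was chosen after the values were seen, and none of these differences between classes was tested.

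**Figure D2:**
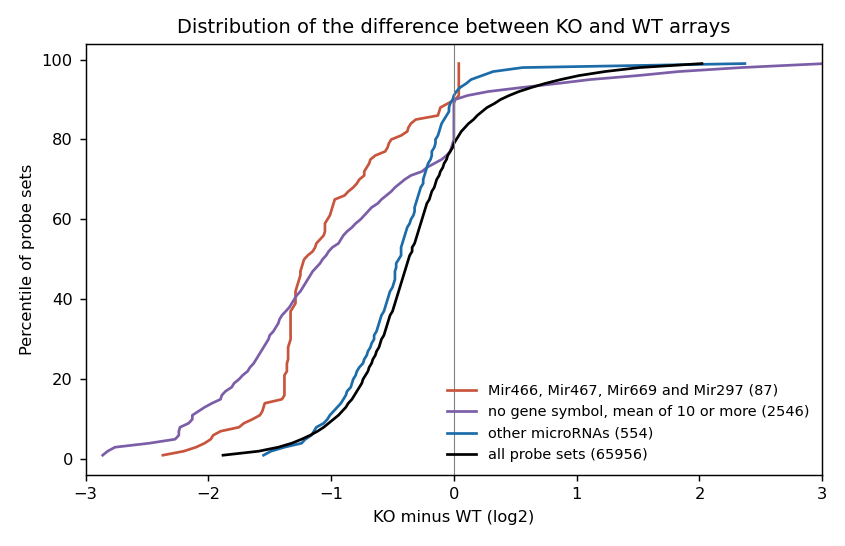
Cumulative distribution of the difference between KO and WT arrays (log2, horizontal axis) as the percentile of probe sets (vertical axis) in 4 classes. The curve of the 87 members crosses the middle at -1.22, that of bright probe sets without a symbol at -1.07, of other microRNAs at -0.45 and of all probe sets at -0.37.

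Medians of the subfamilies lay between -1.33 and -0.89, and the repeated copies of Mir669a stood apart from the rest. The median difference was -1.22 for Mir466, -1.33 for Mir467, -0.89 for Mir669 and -0.89 for Mir297. The difference was below 0 for all 31 Mir466, all 18 Mir467 and all 4 Mir297 probe sets, but for 24 of 34 Mir669 probe sets (70.6%), against 78.5% of all probe sets. All KO values lay below all WT values in 27 Mir466 (87.1%), 16 Mir467 (88.9%), 17 Mir669 (50%) and 3 Mir297 probe sets (75%). The share over all probe sets was 44.9%. With probe sets of identical values counted once, leaving 65, the medians were -1.19 for Mir466, -1.35 for Mir467, -1.13 for Mir669 and -0.89 for Mir297. Differences between subfamilies were not tested.

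Identical values on all 6 arrays tied 29 members into 7 groups. The largest holds 9 copies, Mir669a-4 to Mir669a-12. They read 7.61, 7.34 and 7.65 on the KO arrays, against 6.97, 7.41 and 8.11 on the WT arrays. The KO values thus lay within the WT range, and the difference was 0.04 ± 0.30 (SE). It was 0.37 after centring and 0.28 after quantile normalization, and with single arrays left out it lay between -0.23 (without WT 1) and 0.34 (without WT 3). Mir669p-1 and Mir669p-2, a second tied pair, read 7.92, 7.67 and 7.98 on KO and 7.63, 7.89 and 8.41 on WT arrays, again overlapping. Their difference of -0.12 ± 0.22 (SE) turned positive after centring (0.21) and after quantile normalization (0.09).

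The tied Mir467a and Mir466b copies behaved differently from the Mir669a copies beside them. Mir467a-1, Mir467a-4 (on 2 probe sets), Mir467a-5, Mir467a-7 and Mir467a-8 read 10.21, 8.54 and 9.85 on KO arrays, against 10.86, 10.80 and 10.93 on WT arrays. Every KO value lay below every WT value, by the most on KO 2, and the difference was -1.33 ± 0.42 (SE). Mir466b-1, Mir466b-4, Mir466b-5, Mir466b-6 and Mir466b-7 read 7.54, 6.05 and 7.30 on KO arrays and 8.53, 8.05 and 8.45 on WT arrays, with a difference of -1.38 ± 0.40 (SE). The groups did not overlap here either.

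Along the chromosome 2 cluster a Mir467, a Mir466 and a Mir669 gene follow each other repeatedly. RefSeq gives 10 such trios in direct succession, and 8 of them have all their genes among the members. In each of the 8 the Mir669 copy was the least lowered of the trio. One example is the trio of Mir467a-4, Mir466b-4 and Mir669a-7, with differences of -1.33, -1.38 and 0.04. In the trio Mir467a-1, Mir466b-8 and Mir669a-1 the differences were -1.33, -0.73 and -0.71. Since most copies of a kind share their values, the 8 trios are not 8 separate measurements.

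**Figure D3:**
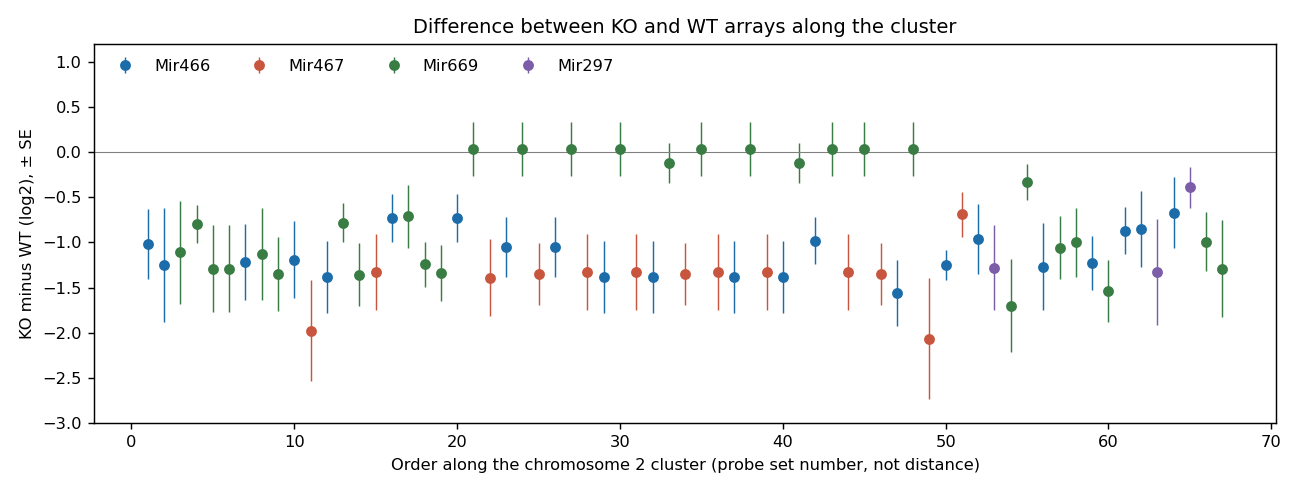
Difference between KO and WT arrays (log2, ± SE) for the 67 members of the chromosome 2 cluster, in the order of their probe set identifiers, coloured by subfamily. Mir669a-4 to Mir669a-12 sit at 0.04 and Mir669p copies at -0.12, between Mir467a copies at -1.33 or -1.35 and Mir466 copies at -0.73 to -1.56.

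In the cluster as a whole, 67 members carried chromosome 2 identifiers within 1 run of numbers, and 65 of 66 neighbouring identifiers stood in the order of RefSeq. Their median difference was -1.22, and the 20 members outside that run had a median of -1.21. Those 20 are of different kinds. In 9 of them the identifier and RefSeq name the same chromosome, other than 2, and their median was -1.04. In 10 the identifier names another chromosome than RefSeq, with a median of -1.63, and these include all 4 members that reached the table's highest value, its ceiling of 19.93, on any array. The remaining probe set, a Mir466d copy at -1.29, has a chromosome 2 identifier before the run. The medians were not tested against each other.

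The lowest Mir466 member was Mir466o, on a probe set whose identifier names chromosome 12, while RefSeq gives chromosome 2. It read 15.60, 13.20 and 15.09 on KO arrays, against 17.14, 16.60 and 17.25 on WT arrays. All KO values were lower, with KO 2 lowest, and the mean was 14.63 ± 1.26 on KO and 17.00 ± 0.35 on WT arrays (SD, n = 3 each). The difference of -2.37 ± 0.62 (SE) is a ratio of 0.194, KO over WT. Mir466f-1 on its chromosome 19 identifier read 19.42, 16.10 and 17.77 on KO and 19.93, 19.39 and 19.93 on WT arrays. There KO 1 overlapped the WT range. The computed difference was -1.99 ± 0.80 (SE), but WT 1 and WT 3 stood at 19.93, the highest value in the table, so the difference could be larger and the place of this probe set among the lowest is not fixed. Mir466f-4 followed at -1.59 ± 0.52 (SE), from 16.78, 14.76 and 16.39 on KO and 17.57, 17.35 and 17.79 on WT arrays.

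The other Mir466 probe sets lay between -1.56 and -0.11, and some of them are described here because they differed least or because their sequence is printed above. Mir466i read 6.87, 5.86 and 6.80 on KO and 6.87, 7.38 and 6.87 on WT arrays, so that KO 1 equalled the lowest WT value. The Mir466p probe set with a chromosome 18 identifier read 6.13, 5.48 and 5.61 on KO and 5.97, 5.54 and 6.03 on WT arrays. It overlapped between groups (-0.11 ± 0.23, SE), and its difference was 0.22 after centring and 0.25 after quantile normalization. Mir466k, with the longest alternating run, read 16.94, 14.82 and 16.56 on KO and 17.20, 17.16 and 17.34 on WT arrays. KO 1 there stood only slightly below the WT arrays while KO 2 stood far below them.

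Among Mir467 members the 3 lowest were Mir467e on both its probe sets and Mir467c. Mir467e in the cluster read 15.47, 13.11 and 15.44 on KO arrays, against 16.58, 16.46 and 17.19 on WT arrays, a difference of -2.07 ± 0.67 (SE). Its probe set with a chromosome 1 identifier read 11.45, 8.78 and 11.08 on KO and 11.94, 12.61 and 12.46 on WT arrays (-1.90 ± 0.70, SE). Mir467c, at -1.98 ± 0.56 (SE), read 14.94, 12.90 and 14.74 on KO and 16.16, 15.81 and 16.54 on WT arrays. In these 3 probe sets the groups did not overlap. Mir467h, with an alternating run of 12 bases in its hairpin, read 16.42, 13.89 and 15.61 on KO and 17.08, 16.78 and 16.72 on WT arrays.

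The least lowered Mir467 members were Mir467f and Mir467g. Mir467g read 7.46, 6.48 and 7.53 on KO and 7.83, 7.69 and 7.56 on WT arrays, with KO 3 just below WT 3 and a difference of -0.54 ± 0.30 (SE). Mir467f on its chromosome 18 identifier stood at 19.93, 19.02 and 19.76 on KO arrays and at 19.93 on each WT array. With KO 1 as well as the WT arrays at that ceiling, the true difference could be larger or smaller than the -0.36 computed. In all, 4 members stood at the ceiling on at least 1 array.

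Mir669h and Mir669b had the lowest differences among Mir669 members, on probe sets with identifiers of chromosomes 10 and 3. RefSeq gives chromosome 2 for both genes, so these probe sets may not read them. Mir669h read 18.03, 15.39 and 16.74 on KO arrays and 19.34, 18.62 and 19.39 on WT arrays. Its difference of -2.40 ± 0.66 (SE) was the lowest of the family, a ratio of 0.19, KO over WT. Mir669b read 9.99, 9.60 and 10.37 on KO arrays, against 12.95, 11.94 and 11.48 on WT arrays. Its difference was -2.14 ± 0.41 (SE), and here the KO arrays lay close together. Mir669n, whose strand is printed above, read 15.69, 13.46 and 15.26 on KO and 16.58, 16.51 and 16.52 on WT arrays, with an SD of 1.18 on KO and 0.04 on WT arrays. Mir669o read 13.03, 11.65 and 12.21 on KO and 13.90, 13.76 and 13.86 on WT arrays, and Mir669g read 7.19, 6.78 and 7.19 on KO and 8.59, 7.80 and 8.50 on WT arrays. In both genes the groups did not overlap. Mir669e on its chromosome 8 identifier stood at the ceiling on all 6 arrays, so that no difference could be measured.

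The 4 Mir297 probe sets showed large and small differences. Mir297a-3 read 13.12, 10.67 and 12.32 on KO arrays and 13.44, 13.31 and 13.35 on WT arrays, a difference of -1.33 ± 0.59 (SE). Mir297c read 11.57, 9.67 and 10.52 on KO and 12.03, 11.58 and 11.98 on WT arrays (-1.28 ± 0.47, SE). In Mir297c KO 1 stood just under WT 2, and in both genes KO 2 was far the lowest. Mir297a-4 averaged 8.65 ± 0.43 on KO and 9.04 ± 0.06 on WT arrays (SD, n = 3 each), without overlap. Mir297-1, the hairpin printed above, read 6.05, 6.03 and 6.44 on KO and 7.19, 6.42 and 6.42 on WT arrays. KO 3 overlapped the WT range there.

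The annotation gave 11 symbols to 2 probe sets each, and in 9 of these the second identifier named another chromosome than RefSeq. Of all 30392 named probe sets with a chromosome in their identifier, 105 disagreed with RefSeq, and 10 of those were members. The 10 had a median difference of -1.63, the other 77 members -1.19. Pairs under 1 symbol could differ widely. Mir466p had a difference of -1.25 in the cluster and -0.11 on the other probe set, and Mir669h had -1.29 in the cluster and -2.40 on the other. Mir466d, with both identifiers on chromosome 2, gave -1.29 and -1.27. A probe set whose identifier disagrees with RefSeq, that of Mir466o among them, may not read the gene it is named for, so its value is uncertain.

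Sfmbt2, in whose intron the cluster lies, did not pass limma's test. It read 6.17, 5.88 and 6.20 on KO arrays, against 6.54, 6.43 and 6.45 on WT arrays. All KO values were lower, and the difference was -0.39 ± 0.13 (SE, limma adjusted p = 0.0692). A 2-sided exact permutation test gave p = 0.1, which 3 arrays against 3 cannot go below. After centring the difference was -0.06 and after quantile normalization -0.02. Its neighbours in RefSeq did not share a direction. Itih5, which encodes an inter-alpha-trypsin inhibitor heavy chain, rose by 2.24 ± 0.49 (SE, limma adjusted p = 0.0387), and its relative Itih2 fell by 0.58 (limma adjusted p = 0.0431).

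Of 21 measured genes that make, load or degrade microRNAs, 4 rose and 0 fell by limma. The 4 are 19% of the list, against 10.7% of protein-coding probe sets and 5.32% of all probe sets called higher. The median difference was 0.32, and 16 of the 21 were above 0. At an unadjusted p under 0.05, 10 were higher and 0 lower, while 31589 of all 65956 probe sets passed it in either direction. Each gene of the list stands by its brightest probe set, while the shares count every probe set. Ddx17, an RNA helicase of the Drosha complex, read 10.07, 11.88 and 10.14 on KO arrays and 8.53, 8.46 and 8.18 on WT arrays. It rose by 2.31 ± 0.50 (SE, limma adjusted p = 0.0383), with all KO values above all WT values and KO 2 the highest. Xrn2, a nuclear exonuclease, rose by 1.16 ± 0.20 (SE, limma adjusted p = 0.0354). Tnrc6a, a partner of Argonaute proteins in silencing, rose by 0.96 ± 0.23 (SE, limma adjusted p = 0.0425), and Tut7, which adds uridines to precursors, by 0.64 ± 0.14 (SE, limma adjusted p = 0.0384). Without KO 3, WT 1, WT 2 or WT 3, limma called 0 of the 21, with 6 to 8 higher and 0 lower at an unadjusted p under 0.05. In those fits 21579 to 28697 of all 65956 probe sets passed it in either direction.

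All KO values lay above all WT values for 14 of the 21 genes, against 23.3% of protein-coding probe sets and 11.1% of all probe sets. They lay below all WT values for 3, against 40.9% of protein-coding probe sets and 44.9% of all probe sets. Drosha, Xpo5, Dicer1 and Ago2 were among the 14 and did not pass. Tarbp2, a partner of Dicer1, was among the 3 with lower KO values, at -0.11, and Ago1 overlapped between groups at 0.15. Dicer1 read 7.42, 8.23 and 7.67 on KO arrays and 7.26, 7.16 and 7.04 on WT arrays (0.62 ± 0.22, SE, limma adjusted p = 0.0799). Drosha, the nuclear nuclease, read 7.62, 7.91 and 7.61 on KO and 7.47, 7.34 and 7.36 on WT arrays (0.32 ± 0.13, SE, limma adjusted p = 0.0997). Xpo5 differed by 0.32 ± 0.12 (SE, limma adjusted p = 0.0824) and Ago2 by 0.41 ± 0.12 (SE, limma adjusted p = 0.0569). In Drosha, Xpo5, Dicer1 and Ago2 KO 2 gave the highest value, on the array where most members had their lowest. KO 2 was also the highest array for genes outside this list, such as Actb, Gapdh, Pparg and Pecam1, but not for Gusb or Tfrc. A link between these genes and the members was not tested.

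**Figure D4:**
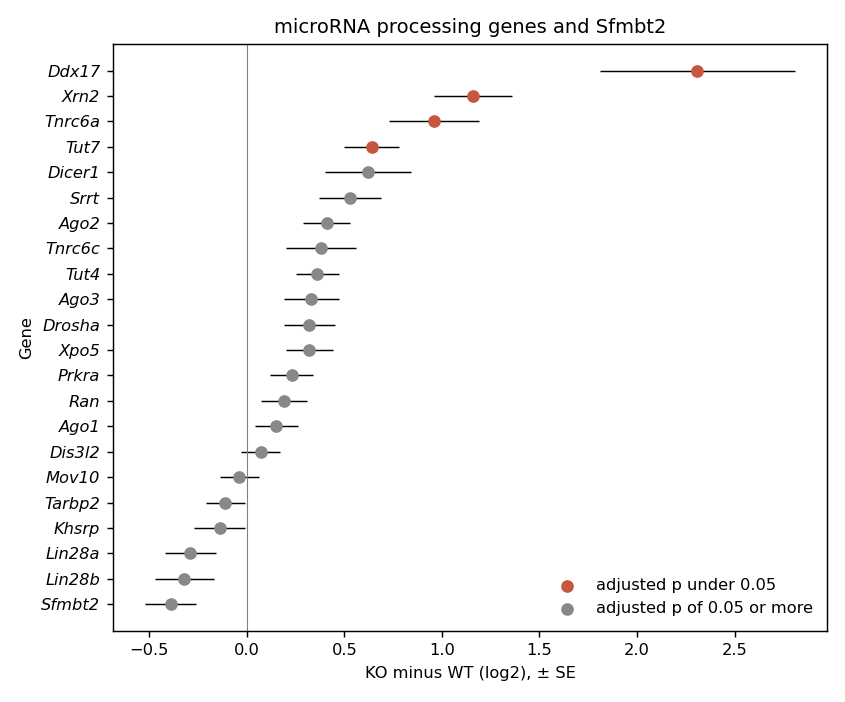
Difference between KO and WT arrays (log2, ± SE) for 21 microRNA processing genes and Sfmbt2, coloured by limma's adjusted p. Ddx17, Xrn2, Tnrc6a and Tut7 passed, between 0.64 and 2.31, while Sfmbt2 stood lowest at -0.39.

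Median differences of other microRNA groups lay closer to 0 than the family's. Of 46 measured microRNAs known from fat, 0 rose and 5 fell by limma (0 and 12 at an unadjusted p under 0.05). The 5 are 10.9% of the list, against 15.6% of all probe sets called lower and 17.7% of other microRNA probe sets. The list had a median difference of -0.27. At an unadjusted p under 0.05, 31589 of all 65956 probe sets passed in either direction. Mir196a-2, from a Hox cluster, fell by 1.26 on the log2 scale (limma adjusted p = 0.0397), and Mir107 differed by -0.89 ± 0.37 (SE) without passing. Mir99a, at 1.70 ± 0.78 (SE), and Mir378a, at 0.49 ± 0.25 (SE), were the highest and did not pass. Of 34 measured microRNAs of the imprinted Dlk1-Dio3 cluster, 0 rose and 7 fell by limma (0 and 14 at an unadjusted p under 0.05). The 7 are 20.6% of the list, near the share of all probe sets, and the list had a median of -0.44. Mir493 fell by 1.40 on the log2 scale (limma adjusted p = 0.0488), and Mir487b differed by -1.26 ± 0.44 (SE) without passing. Mir411 and Mir323 stood highest, at 0.33 and 0.04.

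The median difference of other microRNAs with an alternating run rests on 6 probe sets, 1 of them at the ceiling. Of 473 other microRNA probe sets with a RefSeq hairpin, 6 hold UGUGUGUG or ACACACAC, and their median difference was -0.53, against -0.47 for those without it. Mir672 read 6.89, 5.72 and 6.88 on KO and 7.43, 7.61 and 7.82 on WT arrays (-1.12 ± 0.34, SE), and Mir574 read 11.49, 9.92 and 10.56 on KO and 11.58, 11.61 and 11.73 on WT arrays (-0.98 ± 0.38, SE). KO 2 was the lowest array in both. Mir703 stood at the ceiling on all 3 KO arrays and 2 WT arrays, so that no difference could be measured for it. Its computed 0.25 is part of the median of -0.53, and the others with the motif lay between -1.12 and -0.41. These probe sets were chosen after the family's values were seen, and their differences were not tested against the rest.

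Facts of the whole series bear on all these values. Tfg, the targeted gene, read 7.99, 8.21 and 8.03 on KO-labelled arrays and 7.97, 7.94 and 7.91 on WT-labelled arrays (0.14 ± 0.11, SE, limma adjusted p = 0.345), and thus was not lower under the KO label. All its KO values lay slightly above all its WT values (2-sided exact permutation test, p = 0.1, which 3 arrays against 3 cannot go below). Whether its probe set reads the deleted part is unknown here, and KO and WT therefore name the labels throughout. Array medians were 6.76, 6.47 and 6.73 on KO and 6.97, 6.96 and 7.02 on WT arrays. KO 2 correlated with the other KO arrays at 0.960 and 0.965, while all other pairs within a group reached 0.984 or more. Adipocyte markers averaged 11.76 to 12.95 on KO arrays and 8.94 to 10.37 on WT arrays, and limma called 5 of 8 higher. It also called 6 of 6 endothelial markers, 6 of 12 housekeeping genes, 1 of 6 macrophage markers and 1 of 4 fibroblast markers higher, 2 of 5 lymphocyte markers lower, and 0 of 6 skeletal muscle markers (0 also at an unadjusted p under 0.05), whose mean per array spanned 6.86 to 10.69 on KO and 6.86 to 7.02 on WT arrays. Of protein-coding probe sets 10.7% were called higher and 10.2% lower. The part of these markers in the microRNA differences was not tested. In bulk tissue, fewer cells of a type and less RNA per cell cannot be told apart.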

How the data were processed

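The authors deposited 1 log2 signal per probe set and array. Per the submitters' processing notes the tool was Transcriptome Analysis Console, and per the labels RNA was labelled with a GeneChip WT Pico kit. Version, background correction, normalization and genome build are items not given in the sources used here. There were no detection calls, and the number of arrays limits the precision. GEO's array annotation gave 1 symbol to 30604 probe sets, several to 2146 and none to 33206. Those with several or none stayed unnamed. Chromosomes were read from the probe set identifiers and RefSeq's gene table (GRCm38.p6).

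KO was compared with WT by limma 3.58.1 in R 4.3.3 (lmFit, then eBayes with trend off), fitting the deposited values on genotype alone and adjusting by Benjamini-Hochberg over 65956 probe sets. An adjusted p under 0.05 was a call. Sfmbt2 and Tfg also had exact 2-sided permutation tests (scipy 1.17.1). A gene on several probe sets was represented by the one with the highest mean. The fit was tested on simulated arrays. The members, the gene lists and the rule for named genes were chosen with earlier results of these data known. That rule named, per subfamily, the 3 lowest and 2 highest differences and the highest mean, members above 0, Sfmbt2, Tfg, Drosha, Dgcr8 (not analysed here), Xpo5, Dicer1, Ago2, called processing genes and the extremes of 2 other microRNA lists. Other members named, such as Mir466k, Mir467h, Mir669g and Mir669o, were chosen after their values were seen. The mice are separate per the labels. Alternatives covered normalization, centring, a filter on dim probe sets, the variance model, array weights, a replicate block, single arrays left out, copies, annotation and threshold.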

Additional observations from a re-analysis of the deposited data

How the results depend on the processing

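The median difference of the members stayed below 0 under every alternative run, between -1.46 without KO 1 and -0.74 without KO 2, and 0 members were called higher by limma in any of them (0 at an unadjusted p under 0.05, or 1 after centring). Counts of calls moved more. Quantile normalization gave 6244 calls over all probe sets, of which 64.6% were higher. It called 3 members lower (3.35% of all probe sets were called lower) and 7 processing genes, with a Mir466 median of -0.74. Centring gave 8405 calls, 61.2% of them higher, and 8 processing genes. Array weights gave 22409 calls, 22.2% of them higher, 52 members lower (26.4% of all) and 8 processing genes. At an adjusted p under 0.1 there were 30676 calls and 54 members lower (37.6% of all). Leaving out 1 array at a time gave 0 to 14166 calls, 0 to 47 members lower (0 to 16.2% of all) and 0 to 4 processing genes. Of all calls 24.5% were higher without KO 1 and 30.6% without KO 2, the fits with 4 processing genes. Mir466 medians ran from -1.54 to -0.75. The cause was not tested. Without KO 2, 14 of 19 named members with a measured difference moved by over 1.5 times, and without any other single array 2 or 3 did. With the replicate number as a block there were 11227 calls and 22 members lower (12.5% of all). Same-numbered KO and WT arrays deviated together with correlations of 0.00, 0.20 and 0.14, and differently numbered ones with -0.22 to 0.17. Deviations from a mean of 3 arrays offset each other, so these values cannot decide whether the numbers mark a pairing. Sfmbt2 ranged from -0.45 to -0.02 and Tfg from 0.07 to 0.47 without passing. Fitting probe sets of identical values once, an alternative chosen after the data were seen, called 18 of 64 members lower (18.2% of all). Depth in the sense of signal over background could not be examined, and 4 members at the ceiling limit what can be measured there.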

Other observations

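Gm25285, which RefSeq lists with the synonym Mir466c-3 and which the naming rule left out, held the same 6 values as Mir466c-1 and Mir466c-2. It read 7.92, 6.64 and 7.45 on KO arrays and 8.46, 8.22 and 8.49 on WT arrays. The groups did not overlap, KO 2 was the lowest array, and the difference was -1.05 ± 0.33 (SE).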
